A study of Mus musculus with 4 samples.

Results

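Genes that encode aggrecan, its partners and the small leucine-rich proteoglycans of the fetal limb were followed across the cell classes of the mouse hindlimb skeleton, with and without p21 misexpression in cartilage. The genes were chosen by symbol: Acan, Vcan, Hapln1, Epyc, Dcn, Bgn, Fmod, Lum, Aspn and Snorc, which are 10 of the 32288 features in the count matrices, and all 10 were detected. The rule uses no measured value, and none of them was used to cluster or name the cells.

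Aggrecan is the large chondroitin sulphate proteoglycan that lets cartilage hold water and resist compression. Its N-terminal domain binds hyaluronan, and this binding is locked by the link protein encoded by Hapln1, while versican, encoded by Vcan, builds comparable aggregates in looser matrix. The small leucine-rich proteoglycans have a curved leucine-rich core that binds collagen fibrils: decorin (Dcn), biglycan (Bgn) and asporin (Aspn) form a class, fibromodulin (Fmod) and lumican (Lum) belong to another, and epiphycan (Epyc) is of a further class known from growth plate cartilage. Snorc is a transmembrane chondroitin sulphate proteoglycan of cartilage.

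Cells came from hindlimbs of E14.5 embryos of a SwissWebster outbred background. Experimental (p21) embryos of the Pan-Cart-p21MOE model carried Col2a1-rtTA, TigreTRE-p21, Gli1CreER and R26LSL-tdT, so that doxycycline (1 mg/ml from E12.5) switched on p21 where the Col2a1 transgene is active and tamoxifen (120 µg/g at E13.5) labelled Gli1-expressing cells and their progeny with tdTomato. Control embryos lacked Col2a1-rtTA, carried the other alleles and received both drugs. In each of 2 collections the dissociated cells were sorted into a tdT+ and a tdT- fraction, which gave 4 libraries: S1 (tdT+) and S2 (tdT-) from the first collection, S3 (tdT+) and S4 (tdT-) from the second.

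p21 and control embryos of opposite sex were pooled within a collection, so each cell was given its condition from its sex. The p21 cells were male in S1 and S2 and female in S3 and S4. The study describes the p21 expression of this model as mosaic, in most but not all chondrocytes at E14.5. A p21 cell here is therefore any cell of an experimental embryo, whether or not it expressed p21. The study's methods give 1 embryo for the experimental females and 2 for each other group, by which the p21 values of S3 and S4 would come from 1 embryo, whereas its results describe pools of several embryos for each sample. S1 with S2, and S3 with S4, are fractions of the same embryos rather than separate animals. The tested units were sums of cells by library and condition. p-values therefore measure the spread between these sums, not the spread between embryos.

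The libraries held 2541 to 6455 barcodes and 11945062 to 39435830 UMIs. After filtering, 2856 cells with a known sex were clustered, 1837 p21 and 1019 control, and 944 of them fell in chondrocyte clusters and 1106 in connective tissue clusters. S4 stood apart, since 2746 of its 3912 filtered barcodes had no callable sex and a median of 1144 UMIs. Levels are given as CPM, the UMIs of a gene scaled to a fixed total of UMIs. WPRE, a transgene element added to the reference, was higher in p21 than in control chondrocytes in each library (1241 against 762 in S1, 1088 against 129 in S2, 1872 against 465 in S3 and 1262 against 78.5 CPM in S4). The study states that reads of its tdTomato and p21 transgenes both fall mainly on WPRE, so WPRE does not read p21 alone. Its control values were higher in the tdT+ libraries S1 and S3 than in the tdT- libraries S2 and S4. Cdkn1a, the endogenous p21 gene symbol, was higher in p21 chondrocytes of 3 libraries and lower in those of S4 (68.1 against 95 CPM). These chondrocytes leave out a cluster led by Cdkn1a, with 34 p21 and 0 control cells, 97.1% of them from S4. Its nearest marker list was that of general cartilage, but it stayed unnamed.

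Clusters were named from marker genes, and each name below stands for cells that are like that type. The chondrocytes comprised 217 resting cells, 355 proliferative cells, 97 prehypertrophic or hypertrophic cells, and 275 other chondrocytes that had all 10 general cartilage markers but no zone list. The connective tissue cells comprised 360 fibroblasts, 217 perichondrial cells, 409 osteoprogenitors and 120 tenocytes. The fibroblast list (8 genes) summed to 3896 CPM in fibroblasts, below perichondrium (4637 CPM), osteoprogenitors (4423 CPM) and tenocytes (4357 CPM). With finer clusters no cluster had the fibroblast name. With a minimum of 3000 UMIs per barcode a cluster of 89 cells had it, so this name depends on the setting. Interzone or articular cells numbered 236 and muscle cells 51. Col2a1, the fibrillar collagen of cartilage, read 5759 to 7705 CPM in chondrocytes against 410 to 1009 CPM in connective tissue cells. Col2a1 is itself on the general cartilage list, so these values are no independent check of the names.

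Several members are neighbours in the genome (GRCm38, GENCODE gene spans). Dcn (chr10:97479609-97518143), Lum (chr10:97565128-97572703) and Epyc (chr10:97644068-97682454) lie on the forward strand of chromosome 10, with Kera between Lum and Epyc, and gaps of 47.0 kb from Dcn to Lum, 34.2 kb from Lum to Kera and 30.4 kb from Kera to Epyc. Hapln1 (chr13:89539796-89611652) and Vcan (chr13:89655312-89742509, reverse strand) are 43.7 kb apart, and Aspn (chr13:49544443-49567565) lies 14.9 kb from Omd. Acan (chr7:79053483-79115099) ends 2 bases from Hapln3 on the opposite strand, so reads at that end could be split between the pair if strand was not used in counting. Fmod (chr1:134037254-134048277), Snorc (chr1:87470271-87475482) and the X-linked Bgn (chrX:73483602-73495933) have no member next to them.

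RefSeq windows upstream of the start were found for 7 of the 10 members (none for Dcn, Lum or Snorc), and 3 are printed because their genes were high in different cells: Acan in all chondrocyte classes, Epyc in chondrocytes and hardly elsewhere, and Aspn in connective tissue. Each line gives the 250 bases before the RefSeq start, 5′ to 3′ on the gene's strand, in GRCm38.p6, with matches on either strand in capitals. The letters searched were AACAAT for a SOX-type motif, the letters ACAAAG for another SOX-type motif, TGTGGT for a RUNX-type motif and TATAAA for a TATA box. These are chr7:79052976-79053225 for Acan, chr10:97643818-97644067 for Epyc and chr13:49544193-49544442 for Aspn, all on the forward strand.
Acan: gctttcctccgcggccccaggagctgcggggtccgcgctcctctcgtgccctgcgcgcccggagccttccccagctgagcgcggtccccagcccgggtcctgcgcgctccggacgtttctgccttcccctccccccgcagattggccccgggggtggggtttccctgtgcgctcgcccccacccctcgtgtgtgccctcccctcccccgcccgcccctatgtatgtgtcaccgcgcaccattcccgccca
Epyc: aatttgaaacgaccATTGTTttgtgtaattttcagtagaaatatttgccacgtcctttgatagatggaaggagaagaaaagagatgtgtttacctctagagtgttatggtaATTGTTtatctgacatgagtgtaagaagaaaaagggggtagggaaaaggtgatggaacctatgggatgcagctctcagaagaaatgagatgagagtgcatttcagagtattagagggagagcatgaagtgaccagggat
Aspn: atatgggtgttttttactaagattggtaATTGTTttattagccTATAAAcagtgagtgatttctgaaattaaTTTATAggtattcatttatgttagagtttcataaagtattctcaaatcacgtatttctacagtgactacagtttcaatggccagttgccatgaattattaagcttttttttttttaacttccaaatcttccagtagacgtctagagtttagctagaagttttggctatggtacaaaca
The Acan window had 74.4% G or C and none of these letters. The Epyc window had 39.2% G or C and 2 matches to AACAAT on the opposite strand, 236 and 139 bases before the start. RefSeq lists a further Epyc start inside the gene, whose window (chr10:97646853-97647102) is not printed and had 31.2% G or C, 3 AACAAT on the opposite strand at 228, 208 and 201 bases, and 1 ACAAAG on the gene's strand at 147 bases. The Aspn window had 30% G or C, 1 AACAAT on the opposite strand at 222 bases, and TATAAA at 207 bases on the gene's strand and at 178 bases on the other. Among 32851 such windows of all genes, 9.42% held the first SOX-type motif, 16.5% the other, 14.0% the RUNX-type motif and 12.4% the TATA box. The RefSeq start of Acan lies upstream of the GENCODE gene span, and a match is only a run of letters.

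The members fell into a cartilage group and a connective tissue group by level. Acan, Hapln1, Epyc and Snorc were 11.7, 15.9, 23.1 and 14.1 times as high in chondrocytes as in connective tissue cells, as ratios of the mean CPM over 4 libraries. Aspn and Dcn were 12.8 and 10.8 times as high in connective tissue cells, Bgn, Vcan and Fmod 2.17, 1.73 and 1.69 times, and Lum was nearly level at 1.09 times. The ratio of Dcn was 3.45 times with a minimum of 3000 UMIs per barcode, under which a cluster of 311 cells with Dcn among its leading genes had no name. With finer clusters the ratio was 2.79 times for Fmod and 1.13 times for Vcan. The classes come from clusters of these same cells, so the levels are given as a description with no test. These levels pool the p21 and control cells of a library.

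**Figure D1:**
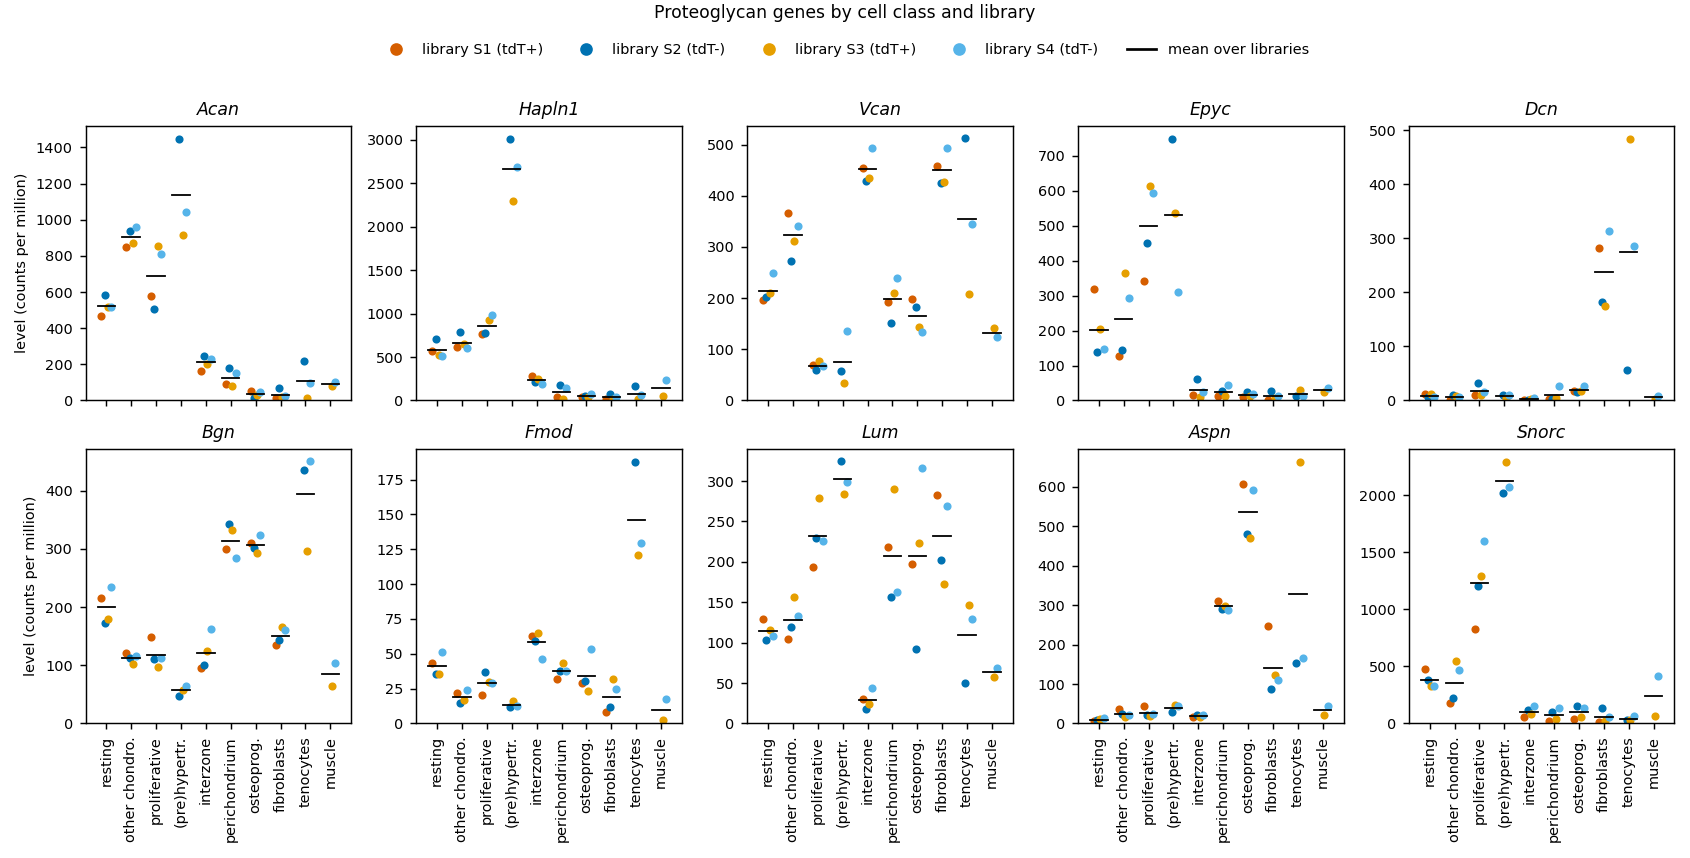
Level of each member in CPM (linear axis from 0) by cell class, with 1 point per library of at least 10 cells and a bar at the mean. Each point pools p21 and control cells. Acan, Hapln1, Epyc and Snorc sit highest in chondrocyte classes, Aspn and Dcn in connective tissue classes, and Vcan is lowest in proliferative chondrocytes (mean of 68.1 CPM).

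Aggrecan and its link protein differed in how they ran through the zones. Acan read 523 ± 47.9 CPM (SD over libraries, n = 4) in resting, 688 ± 170 in proliferative, 905 ± 54.6 in other and 1136 ± 276 (n = 3) in prehypertrophic or hypertrophic chondrocytes. Neighbours in this order overlapped between libraries, whereas every chondrocyte class lay above the interzone or articular cells at 210 ± 36.8 CPM. Hapln1 read 580 ± 92.6 CPM in resting, 665 ± 86.0 in other and 860 ± 110 in proliferative chondrocytes, with overlap between neighbours. In control cells alone its TMM-scaled means were 811, 721 and 1012 CPM in that order, and with p21 479, 645 and 797 CPM. In prehypertrophic or hypertrophic chondrocytes Hapln1 reached 2660 ± 359 CPM (n = 3), and its lowest library there (2290 CPM) was above the highest proliferative library (984 CPM).

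Snorc climbed more steeply than Acan along the zones. Its level was 381 ± 69.9 CPM in resting and 356 ± 180 in other chondrocytes, whose libraries overlapped. In control cells alone the TMM-scaled means of these classes were 436 and 206 CPM, and with p21 377 and 478 CPM. Proliferative chondrocytes had 1234 ± 317 CPM and prehypertrophic or hypertrophic cells 2130 ± 145 CPM (n = 3), each apart from the class below it. A cluster of 212 of the proliferative cells was led by Cytl1, of the resting list, and Snorc, with Matn1 of the proliferative list and Epyc further down. With finer clusters, a cluster of 163 cells led by Hbb-y and Cytl1, with Snorc further down, had no name. Its nearest list was the resting one, so the proliferative name depends on the setting. Epyc, with the conditions pooled, read 202 ± 82.8 CPM in resting and 232 ± 115 in other chondrocytes. It read 500 ± 128 in proliferative and 532 ± 220 in prehypertrophic or hypertrophic cells. In control cells alone its TMM-scaled means were 268 CPM in resting, 129 in other and 541 in proliferative chondrocytes. With p21 they were 178, 322 and 525 CPM, so the order of resting and other chondrocytes differed between conditions. Outside chondrocytes, Epyc means were at most 29.7 CPM.

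Versican ran the other way. Vcan was highest in interzone or articular cells (453 ± 29.4 CPM) and fibroblasts (451 ± 32.4), which overlapped, and lowest in proliferative chondrocytes (68.1 ± 7.01 CPM, n = 4). Resting chondrocytes held 215 ± 24.3 CPM and other chondrocytes 323 ± 40.6 CPM, with no overlap between these classes. Fibroblasts were thus the class with the lowest mean of Acan (30.4 ± 24.3 CPM) and one of the highest of Vcan. This holds for the cells named fibroblasts in the main clusters, a name that depends on the setting.

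Among the small leucine-rich proteoglycans, Dcn, Bgn and Fmod had their highest mean in tenocytes and Aspn in osteoprogenitors. Aspn, which binds collagen and calcium, was highest in osteoprogenitors (538 ± 71.9 CPM), and was 327 ± 291 CPM in tenocytes (n = 3) and 297 ± 10.1 CPM in perichondrium. For Aspn, fibroblasts followed at 142 ± 71.1 CPM without overlapping the perichondrium, and resting chondrocytes were lowest at 9.68 ± 3.41 CPM. Dcn, a regulator of fibril diameter, was highest in tenocytes (276 ± 214 CPM, n = 3) and fibroblasts (238 ± 70.8 CPM), with means of at most 19.6 CPM in the other 8 classes compared. Bgn, the closest relative of decorin, had 394 ± 84.9 CPM in tenocytes (n = 3), 314 ± 27.3 in perichondrium and 307 ± 13.4 in osteoprogenitors. Resting chondrocytes came next for Bgn with 201 ± 29.5 CPM, apart from fibroblasts at 151 ± 14.7 CPM below them, and prehypertrophic or hypertrophic cells were lowest at 56.9 ± 8.98 CPM.

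Fibromodulin and lumican, though of the same class, peaked in different cells. Fmod was highest in tenocytes (146 ± 36.2 CPM, n = 3), whose lowest library (121 CPM) lay above the highest of the interzone or articular cells (64.7 CPM). Lum was highest in prehypertrophic or hypertrophic chondrocytes (302 ± 20.5 CPM, n = 3), above proliferative chondrocytes (232 ± 35.1) and fibroblasts (231 ± 53.1), which overlapped. Interzone or articular cells had the lowest Lum level (29.1 ± 11.1 CPM), where Vcan was highest. Of the genes near members, Kera, between Lum and Epyc, read 90.3 CPM in tenocytes. Ogn, next to Omd on chromosome 13, read 327 CPM in tenocytes, 243 in osteoprogenitors and 9.59 in resting chondrocytes. In the same classes Aspn read 327, 538 and 9.68 CPM.

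Over 38 pseudobulks (summed UMIs of a class in a library) from 12 classes, the gene most like each member by Pearson's r of log2(CPM + 1), given as a description of points that share libraries and depth, was Col2a1 for both Acan (0.978) and Hapln1 (0.956). For Snorc it was Comp (0.957), a cartilage matrix thrombospondin, and for Epyc Matn1 (0.934), a cartilage matrilin. For Aspn it was Ogn (0.946), which encodes osteoglycin. Of the genes named in this paragraph, Col2a1, Matn1, Thbs4, Col11a2, Matn3, Col1a1 and Thbs2 were among the markers that named the classes. The values were lower for Vcan with Sulf1 (0.898), Bgn with Mmp14 (0.847), Fmod with Ltbp3 (0.812), Dcn with Thbs4 (0.788) and Lum with Ebf1 (0.750). Next in likeness were Col11a2 and Susd5 for Acan, Trim47 and Col11a2 for Hapln1, Matn3 and Gadd45b for Epyc, Lgals3 and S100a1 for Snorc, Col1a1 and Thbs2 for Aspn, Mir99ahg and Plce1 for Vcan, Mpped2 and Mfap4 for Bgn, Mboat7 and Htra1 for Fmod, Tril and Brinp3 for Dcn, and Arap1 and Batf3 for Lum.

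RNA of the cartilage members was also counted in cells that should lack it. After thinning each cell to 3000 UMIs, 52.6% of the 38 immune cells had an Acan UMI, 50% a Hapln1 UMI and 65.8% a Snorc UMI (exact 95% binomial interval for Snorc of 48.6% to 80.4%, for counting error only). S4 held 86.8% of these immune cells, and its immune cells read 269 CPM of Acan, 258 CPM of Snorc and 2084 CPM of Col2a1. The shares in muscle cells were 6.0% for Acan and 22.0% for both Hapln1 and Snorc. In connective tissue cells the shares were 13.9% for Acan, 15.2% for Hapln1 and 17.2% for Snorc, all below those of immune cells. Those of Hapln1 and Snorc were also below muscle cells, while that of Acan was above them, and no expression in connective tissue cells is read from these shares. The median depth before thinning was 13147 UMIs in immune cells, 24838 in connective tissue cells and 23692 in chondrocytes.

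**Figure D2:**
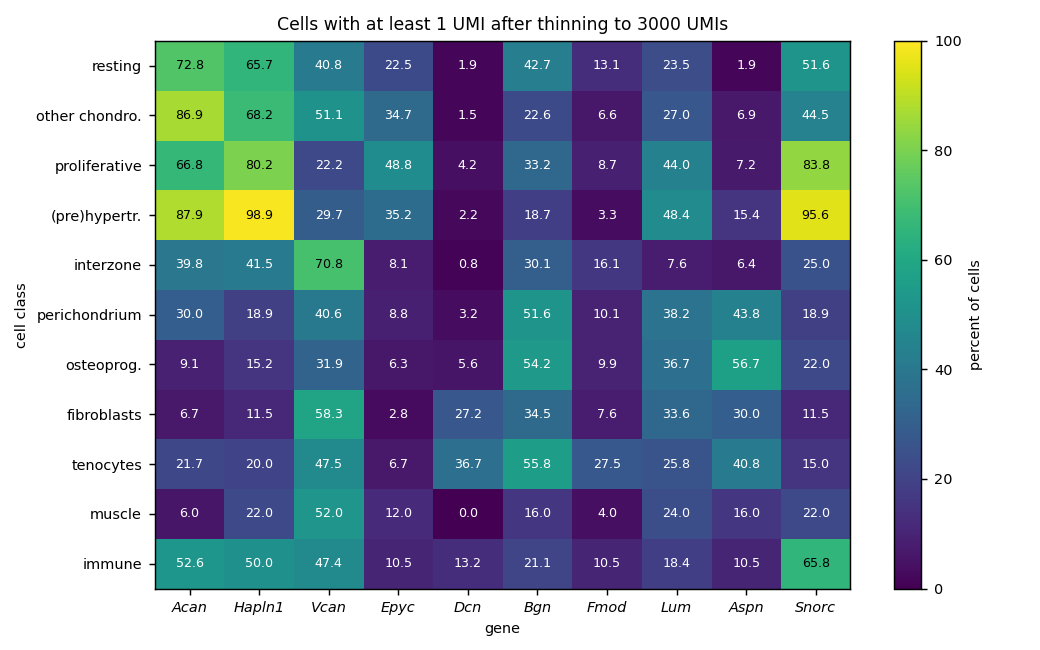
Percent of cells with at least 1 UMI of each member after thinning to 3000 UMIs, by cell class. Immune cells have 52.6% for Acan and 65.8% for Snorc, above the connective tissue shares of 13.9% and 17.2%.

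Chondrocytes as a whole had 76.3% of cells with an Acan UMI, 75.1% with Hapln1 and 65.7% with Snorc after thinning, so for Snorc the share was close to that of the immune cells. The zones separated: 95.6% of prehypertrophic or hypertrophic cells and 83.8% of proliferative cells had a Snorc UMI, against 51.6% of resting and 44.5% of other chondrocytes. Aspn was found in 56.7% of osteoprogenitors and 1.88% of resting chondrocytes, with 10.5% in immune cells. Before thinning, 92.1% of immune cells had a Snorc UMI.

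The first comparison asked whether p21 misexpression in cartilage changed these genes in chondrocytes, over 4 p21 and 4 control pseudobulks (35 to 320 cells each) with the sorted fraction as a covariate. None of the 10 members passed (edgeR quasi-likelihood test, Benjamini-Hochberg adjusted p under 0.05), where 36 of 11647 genes did, or 0.309%. Hapln1 alone of the members had an unadjusted p under 0.05, as did 9.14% of the genes tested. DESeq2 called 0 members. The median log2 fold change of the members was -0.11, beside -0.0041 over all genes tested.

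Acan read 638, 730, 820 and 889 CPM in control chondrocytes of S1 to S4 and 742, 785, 802 and 845 CPM in p21 chondrocytes. The groups overlapped, and the p21 values spanned less than the control values. The log2 fold change of Acan was 0.05 ± 0.10 (SE). Hapln1 read 765, 1084, 1188 and 1409 CPM in control and 909, 938, 804 and 950 CPM in p21 chondrocytes, lower with p21 in 3 of 4 libraries. Its log2 fold change was -0.29 ± 0.14 (edgeR unadjusted p = 0.0496, Benjamini-Hochberg adjusted p = 0.546). The other members had log2 fold changes between -0.30 (Aspn) and 0.01 (Bgn), with p21 and control libraries overlapping for each.

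The makeup of these pseudobulks differed. Proliferative cells were 22.9% to 42.2% of p21 chondrocytes and 25.4% to 53.5% of control chondrocytes, and prehypertrophic or hypertrophic cells were 3.92% to 20.0% of p21 chondrocytes and at most 19.4% of control chondrocytes. The summed level of the proliferative markers was 2162 to 2497 CPM in p21 and 2526 to 3695 CPM in control chondrocytes, without overlap. Its part in the values of whole chondrocytes was not tested, and resting, proliferative and other chondrocytes were therefore compared separately. Prehypertrophic or hypertrophic chondrocytes were not compared. They numbered 2, 7, 13 and 41 p21 cells in S1 to S4, and 13, 2 and 19 control cells in S2 to S4.

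**Figure D3:**
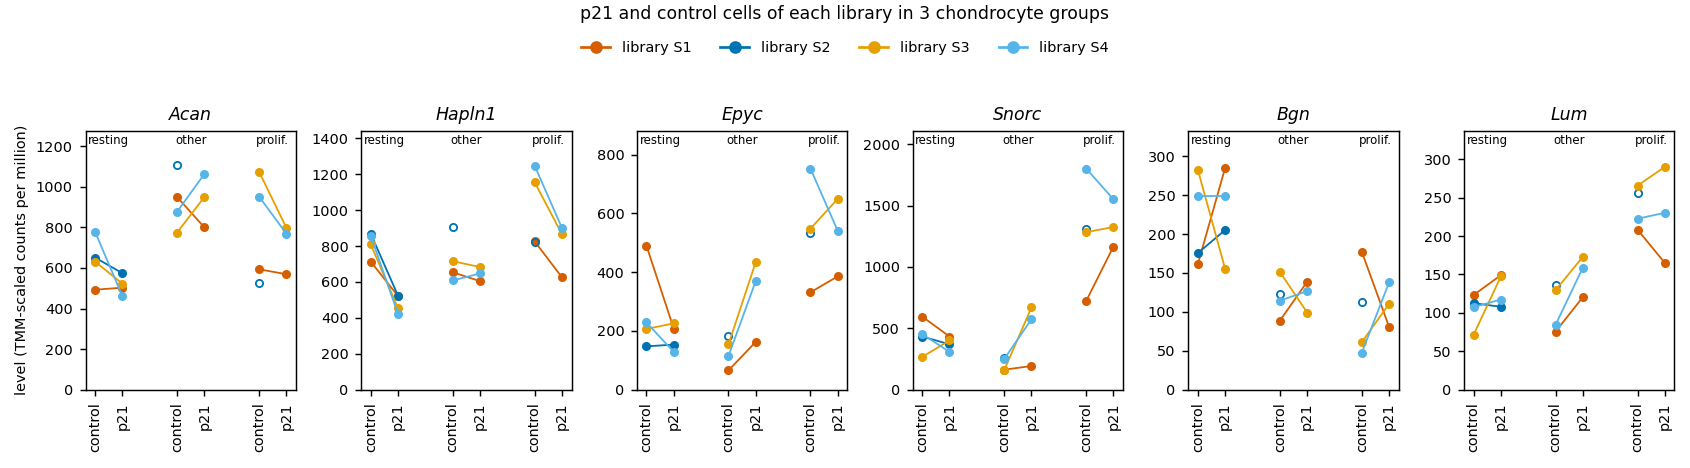
TMM-scaled CPM of Acan, Hapln1, Epyc, Snorc, Bgn and Lum in control and p21 pseudobulks of resting, other and proliferative chondrocytes, with 1 point per library of at least 10 cells, lines joining the points of a library and open points for a library with 1 condition. In resting chondrocytes the 4 p21 points of Hapln1 lie between 419 and 522 CPM, all below the control points of 713 to 868 CPM.

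In resting chondrocytes, Hapln1 fell with p21. Control libraries S1 to S4 read 713, 868, 809 and 857 CPM, and p21 libraries 521, 522, 452 and 419 CPM. The p21 value was lower in 4 of 4 libraries, and the groups did not overlap. The mean was 479 ± 51.2 CPM (SD, n = 4) with p21 and 811 ± 70.6 CPM (n = 4) in controls, a log2 fold change of -0.77 ± 0.12 (SE; edgeR quasi-likelihood test, Benjamini-Hochberg adjusted p = 0.00953). An exact two-sided permutation test of this value gave p = 0.0286, the smallest that 4 against 4 allows. That test treats the fractions of the same embryos as separate samples, as do the others given here.

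Hapln1 was the only called member of the 8 tested there (Dcn and Aspn did not pass the filter on low counts), beside 18 of 6357 genes, or 0.283%. Groups without overlap were found for 4.80% of the genes tested. The call rests on small pseudobulks of 12 to 61 cells and on S4: the adjusted p (edgeR) was 0.0558 without the S4 control, 0.0624 without the S4 p21 cells and 0.168 without both, when the log2 fold change was -0.67. It was also lost with the 2 fractions of a collection summed (adjusted p = 0.0967) and with finer clusters (-0.51, adjusted p = 0.418).

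Other values moved with the condition in the same cells. The proliferative marker list (6 genes) summed to 1682 to 1843 CPM in p21 and 1864 to 2883 CPM in control resting chondrocytes, and the resting list (8 genes) to 771 to 928 CPM against 987 to 1298 CPM, both without overlap. The general cartilage list overlapped, at 16567 to 18700 CPM against 16912 to 19488 CPM. The hypertrophic list (5 genes), which marks the cells with most Hapln1, summed to 0 to 18.7 CPM in p21 and 0 to 25.0 CPM in control resting chondrocytes, with Mmp13 and Dmp1 at 0 in all 8 pseudobulks. The part of the proliferative and resting lists in the fall of Hapln1 was not tested.

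Aggrecan itself did not pass the test in resting chondrocytes. Acan read 493, 652, 632 and 779 CPM in controls and 503, 574, 523 and 461 CPM with p21, lower in 3 of 4 libraries with overlapping groups (log2 fold change -0.31 ± 0.13, edgeR adjusted p = 0.53). Epyc read 490, 147, 206 and 228 CPM in controls and 207, 153, 226 and 128 CPM with p21, so the difference (-0.55 ± 0.23, edgeR adjusted p = 0.509) leaned on the S1 control of 12 cells. Snorc, Vcan, Bgn, Fmod and Lum had log2 fold changes of -0.22, -0.20, 0.04, -0.02 and 0.33, all with overlapping groups.

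Proliferative chondrocytes were compared over 3 p21 and 4 control pseudobulks, since S2 had 8 p21 cells of this zone and was left out. No member of the 10 passed (edgeR), none had an unadjusted p under 0.05 and DESeq2 called 0, where 1 of 9717 genes passed, or 0.0103%. At an unadjusted p under 0.05 were 3.81% of these genes. Hapln1 read 825, 822, 1155 and 1247 CPM in controls of S1 to S4 and 625, 865 and 900 CPM with p21 in S1, S3 and S4. It was lower with p21 in each of these 3 libraries, but the groups overlapped (-0.32 ± 0.19, edgeR unadjusted p = 0.128). Acan was also lower in 3 of 3 (569, 798 and 769 CPM against 594, 1076 and 953 CPM of the same libraries), with a log2 fold change of -0.14 ± 0.25.

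The other chondrocytes were compared after their levels had been seen, because Epyc and Snorc looked higher with p21. The p-values given for Epyc and Snorc in these cells do not allow for that choice. Epyc read 65.1, 182, 154 and 114 CPM in controls of S1 to S4 and 163, 434 and 370 CPM with p21 in S1, S3 and S4. Snorc read 161, 257, 156 and 248 CPM in controls and 192, 669 and 573 CPM with p21. Both were higher in 3 of 3 libraries, with the S1 p21 value inside the control range.

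The log2 fold change was 1.40 ± 0.33 for Epyc and 1.34 ± 0.32 for Snorc, and neither passed after adjustment (edgeR, Benjamini-Hochberg adjusted p = 0.143 for each). Of the 9 members tested, 0 passed with edgeR, beside 13 of 8704 genes, or 0.149%. At an unadjusted p under 0.05 were 3 members, beside 804 genes, or 9.24%. DESeq2 called both, with adjusted p of 0.0114 for Epyc and 0.0110 for Snorc, while the exact two-sided permutation test gave p = 0.0857 and p = 0.114. Without the S1 p21 cells edgeR called both (adjusted p of 0.0456 and 0.0128), and without the S3 p21 cells the adjusted p was 0.812 and 0.741. The third was Vcan (-0.56 ± 0.26), lower in 3 of 3 libraries. Proliferative markers overlapped between the groups here (1894 to 2035 CPM with p21, 1891 to 2630 CPM in controls), whereas the resting list summed to 374 to 463 CPM with p21 and 549 to 694 CPM in controls.

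**Figure D4:**
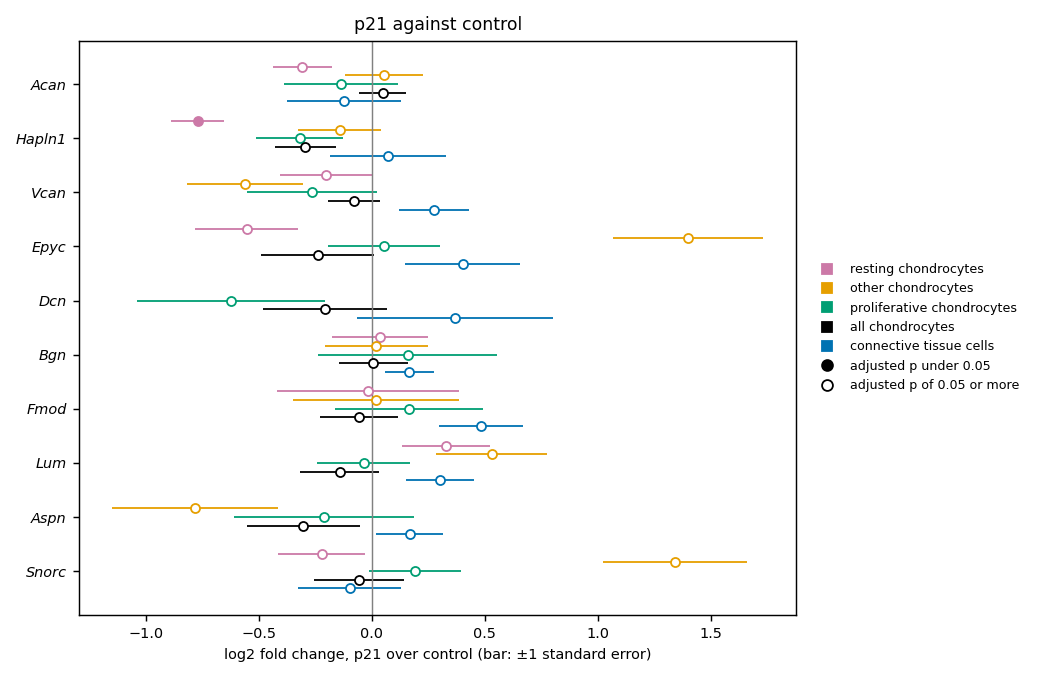
Log2 fold change of each member, p21 over control, with its standard error from edgeR, in each class compared. Filled points pass an adjusted p of 0.05, which only Hapln1 in resting chondrocytes does (-0.77).

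In connective tissue cells, outside the cartilage that Col2a1-rtTA targets, no member of the 10 passed (edgeR), nor did any of 12925 genes (0%). At an unadjusted p under 0.05 there were 492 genes, of which Fmod was the single member, and DESeq2 called 6 genes and 0 members. Fmod read 24.5, 35.6, 34.8 and 50.5 CPM in controls and 30.8, 92.9, 37.0 and 66.1 CPM with p21. It was higher in 4 of 4 libraries with overlapping groups (log2 fold change 0.48 ± 0.19, edgeR unadjusted p = 0.0237). The median of the members was 0.22, beside -0.00014 over all genes.

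A test of the difference between the 2 p21 effects, chondrocytes against connective tissue cells, called 0 of 13423 genes (0%) with edgeR and 8 with DESeq2, with 814 genes at an unadjusted p under 0.05. Lum was the one member among those (difference of -0.48 ± 0.21 in log2 fold change, edgeR adjusted p = 0.815). For Hapln1 the difference was -0.38 ± 0.47 and for Acan 0.20 ± 0.38. No member was therefore shown to respond differently in the 2 tissues.

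The second comparison asked how cells of the Gli1 lineage (tdT+) differed from unlabelled cells (tdT-), over the same 8 pseudobulks with the condition as a covariate. All tdT+ pseudobulks came from libraries S1 and S3, and all tdT- ones from S2 and S4. The p21 and control cells of a library were counted as separate units, so the fraction cannot be told apart from the library. tdTomato read 16.2 to 22.5 CPM in tdT+ and 0.68 to 3.76 CPM in tdT- chondrocytes. In chondrocytes 0 of the 10 members passed (edgeR, and 0 with DESeq2), beside 2 of 11647 genes with edgeR, or 0.0172%. At an unadjusted p under 0.05 were 3 members, beside 496 genes, or 4.26%. Vcan was the member whose groups did not overlap, as for 2.58% of the genes tested, with 182, 204, 180 and 224 CPM in tdT+ (p21 and control of S1, then of S3) against 165, 138, 168 and 176 CPM in tdT- (p21 and control of S2, then of S4), a log2 fold change of 0.28 ± 0.12 (edgeR adjusted p = 0.999). Snorc (-0.47 ± 0.20) and Dcn (-0.75 ± 0.27) were lower in tdT+ in 4 of 4 pairs of the same embryos, with overlap. The hypertrophic marker list summed to 3.87 to 19.7 CPM in tdT+ and 89.5 to 476 CPM in tdT- chondrocytes, and its part in these values was not tested.

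In connective tissue cells, 3 of the 10 members fell in tdT+ cells: Snorc, Hapln1 and Fmod (edgeR), beside 197 of 12925 genes, or 1.52%, of which 142 were lower and 55 higher. Snorc read 22.4, 30.5, 45.7 and 33.3 CPM in tdT+ (p21 and control of S1, then of S3) and 78.0, 136, 86.8 and 73.7 CPM in tdT- (p21 and control of S2, then of S4). Every tdT+ value was below every tdT- value, and the log2 fold change was -1.48 ± 0.23 (edgeR adjusted p = 0.00997). Hapln1 read 31.0, 40.7, 30.5 and 24.5 CPM in tdT+ and 125, 109, 68.7 and 49.6 CPM in tdT-, also without overlap, with a log2 fold change of -1.41 ± 0.26 (edgeR adjusted p = 0.0213). Groups without overlap were found for 7.22% of the genes tested. An exact two-sided permutation test over the same pseudobulks gave p = 0.0286 for Snorc and for Hapln1 and p = 0.0571 for Fmod. Like the edgeR test, it counts the p21 and control cells of the same library as separate units.

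Fmod read 30.8, 24.5, 37.0 and 34.8 CPM in tdT+ and 92.9, 35.6, 66.1 and 50.5 CPM in tdT- connective tissue cells. It was lower in 4 of 4 pairs, with the groups overlapping (-0.88 ± 0.19, edgeR adjusted p = 0.0423). With the embryos of a collection as a block, which pairs the fractions, 5 members and 319 genes passed: Acan was added as lower (log2 fold change -1.04, adjusted p = 0.00642) and Aspn as higher (0.54, adjusted p = 0.00927), the 1 member called higher in tdT+ cells. Without the block Acan had -1.05 ± 0.25 (edgeR adjusted p = 0.0717) and read 31.3 to 55.8 CPM in tdT+ and 60.5 to 149 CPM in tdT-. Aspn without the block had 0.56 ± 0.15 (edgeR adjusted p = 0.106), with 327 to 492 CPM in tdT+ and 216 to 327 CPM in tdT-.

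The call of Snorc held in each alternative run, whereas those of Hapln1 and Fmod were lost when some single pseudobulks were left out. The adjusted p (edgeR) of Hapln1 rose to between 0.0527 and 0.0780 without the S1 p21, S2 control, S3 control or S3 p21 cells. That of Fmod rose to between 0.0576 and 0.147 without the S1 control, S1 p21, S2 p21, S3 p21, S4 control or S4 p21 cells, and to 0.201 without S4.

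**Figure D5:**
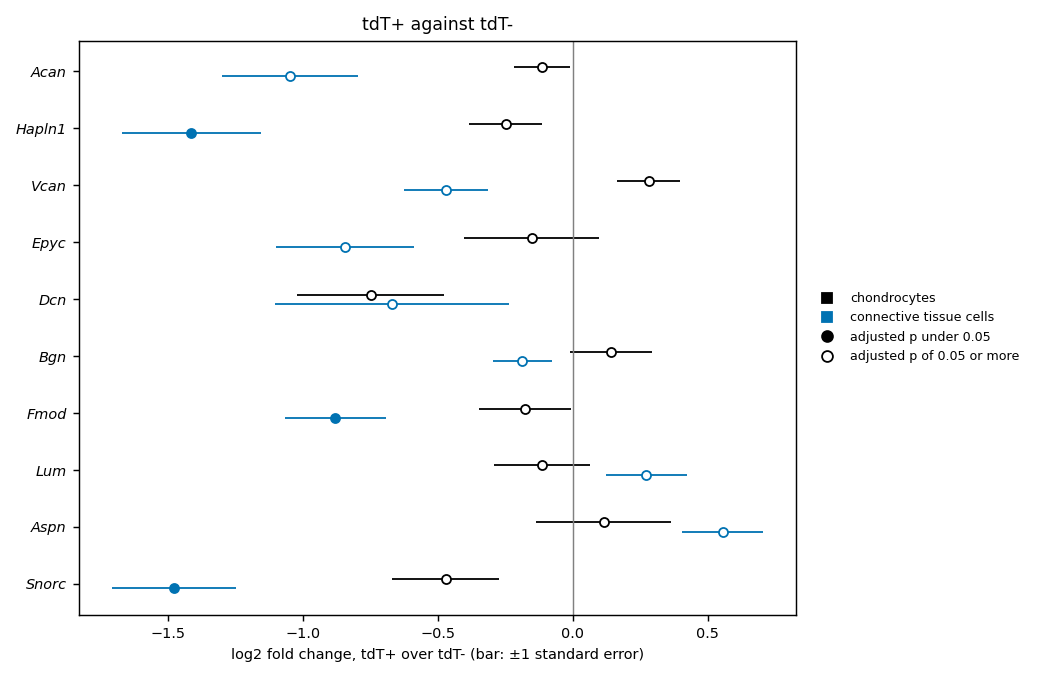
Log2 fold change of each member, tdT+ over tdT-, with its standard error from edgeR, in chondrocytes and in connective tissue cells. In connective tissue cells Snorc (-1.48), Hapln1 (-1.41) and Fmod (-0.88) pass an adjusted p of 0.05, and no member passes in chondrocytes.

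The makeup of the sorted fractions moved with these results. The general cartilage marker list (10 genes) summed to 1737 to 1993 CPM in tdT+ and 1893 to 3483 CPM in tdT- connective tissue cells, and chondrocytes were 20.9% to 28.9% of the tdT+ cells and 34.7% to 50.2% of the tdT- cells. Tenocytes, the class with most Fmod, were 2.54% to 4.78% of tdT+ and 8.45% to 28.7% of tdT- connective tissue cells. Osteoprogenitors, the class with most Aspn, were 43.2% to 47.4% of tdT+ and 19.3% to 29.7% of tdT- connective tissue cells. In muscle cells, which should lack the cartilage members, S3 (tdT+) read 54.7 CPM of Hapln1 and 62.1 CPM of Snorc, and S4 (tdT-) 240 and 413 CPM. The part of these differences in the falls of Hapln1, Snorc and Fmod was not tested, and fewer cells of a class cannot be told apart from less RNA per cell in these sums.

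The other genes of proteoglycan biology, 104 in all, were listed by role: other matrix and cell surface proteoglycans, enzymes that build and sulphate the sugar chains, hyaluronan genes, proteases with an inhibitor, and SOX factors. With p21, 0 of 75 tested passed in chondrocytes (edgeR; 6 at an unadjusted p under 0.05), 0 of 87 in connective tissue cells (7) and 0 of 65 in proliferative chondrocytes (2). Of all genes tested in these classes, 9.14%, 3.81% and 3.81% had an unadjusted p under 0.05. The nearest in chondrocytes were Hmmr, which encodes a hyaluronan-mediated motility receptor (-0.66 ± 0.17, edgeR adjusted p = 0.155), and Adamts1, a protease that cleaves aggrecan and versican (-0.98 ± 0.25, edgeR adjusted p = 0.16). In connective tissue cells these were the aggrecanase gene Adamts5 (1.35 ± 0.20, edgeR adjusted p = 0.148) and the sulphotransferase gene Chst5 (0.91 ± 0.24), and in proliferative chondrocytes Csgalnact1, which starts chondroitin chains (-0.76 ± 0.25), and Adamts1 (-1.14 ± 0.47).

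In resting chondrocytes 1 of 45 tested passed, where 0.283% of all genes did: Hmmr fell from 101 ± 29.2 CPM (n = 4) in controls to 34.9 ± 16.7 CPM (n = 4) with p21, lower in 4 of 4 libraries (log2 fold change -1.52 ± 0.29, edgeR adjusted p = 0.0374). Hmmr is known as a gene of dividing cells as well as for hyaluronan. In other chondrocytes 0 of 60 passed (edgeR), and 1 had an unadjusted p under 0.05, beside 9.24% of all genes tested. Nearest were Sdc4, a cell surface proteoglycan (0.50 ± 0.20), and Ecm2 (-0.87 ± 0.40). The difference between tissues called 0 of 89 (edgeR), and 7 had an unadjusted p under 0.05, beside 6.06% of all genes tested. Nearest there were Ptprz1 (-2.02 ± 0.38, edgeR adjusted p = 0.292) and Hmmr (-1.12 ± 0.30).

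Between sorted fractions, 0 of 75 tested passed in chondrocytes (edgeR), and 8 had an unadjusted p under 0.05, beside 4.26% of all genes tested. Nearest were Gpc5, a glypican (1.35 ± 0.32, edgeR adjusted p = 0.589), and Chad, encoding the leucine-rich protein chondroadherin (-0.45 ± 0.14). In connective tissue cells 11 of 87 passed, 2 higher and 9 lower in tdT+ cells, where 1.52% of all genes tested passed (55 higher and 142 lower), with a list median log2 fold change of 0.00099 beside -0.0046 over all genes tested. Htra1, a secreted protease, had 31.9 ± 7.98 CPM in tdT+ and 144 ± 29.2 CPM in tdT- cells (n = 4 each; log2 fold change -2.16 ± 0.18, edgeR adjusted p = 0.000312). Chst5 (-2.27), the hyaluronan-binding Tnfaip6 (-1.05), Adamts5 (-1.38) and Csgalnact1 (-0.67) were also lower in 4 of 4 pairs. The genes called higher were Chst2 (0.86), a sulphotransferase, and Sdc2 (0.54), a syndecan. Htra1 was among the leading genes of the tenocyte cluster, and tenocytes were a smaller part of tdT+ than of tdT- connective tissue cells. The part of the differing makeup in the values of these listed genes was not tested.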

How the data were processed

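Single-cell RNA-seq of sorted hindlimb cells was deposited as UMI counts per gene and barcode. The authors aligned with Cell Ranger 7.2.0 to GRCm38 extended with tdTom, CreERT2 and WPRE; their methods also name CellBender and DoubletFinder, and whether the deposited counts had passed these is not stated in the sources used here. The members, gene lists and tests were chosen with earlier results of these data known.

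Barcodes with at least 1000 UMIs, 500 genes and at most 10% mitochondrial counts were kept. Sex was called from Xist and Y-linked UMIs (at least 2, with at least 80% from one sex) and gave the condition by the study's multiplexing. Cells of mixed sex (175) were dropped as doublets, as were the top 5% of scrublet scores per library, since its automatic limit marked 7 barcodes. Barcodes of unknown sex (175 to 2746 a library) were left out of clustering, a departure from the plan, which had included them in the levels by class. scanpy 1.11.5 clustered 2856 cells (2000 variable genes without the members and cell cycle genes, 30 components, Leiden resolution of 1.0) into 23 clusters, named from markers. Libraries shared 2 barcodes. Unnamed clusters nearest to chondrocytes held 0.99% to 19.8% of p21 and 3.67% to 13.2% of control cells of a library. Among them, clusters of 78, 34 and 16 cells held p21 cells and 0 control cells. They were outside the main p21 comparisons.

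Counts were summed per class, library and condition (at least 10 cells) and tested with edgeR 4.0.16 (glmQLFit and glmQLFTest, TMM, filterByExpr, Benjamini-Hochberg over all genes) in R 4.3.3; single values also had an exact permutation test over pseudobulks. Levels by class are CPM without TMM, and values by condition are TMM-scaled CPM. The depth was 11945062 to 39435830 UMIs a library. Scripts were tested on simulated data.

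Named genes were all members, up to 5 listed proteoglycan genes called in each direction per comparison (or the 2 of lowest p), the 3 genes most like each member, and transgene and class checks. The fractions of a collection come from the same embryos, so they count as pairs. Their deviations from the mean of their fraction correlated in each pair (0.223 to 0.446 in chondrocytes, 0.109 to 0.328 in connective tissue cells). The condition was left in these deviations, so the values cannot show pairing beyond it. The tdT tests were nevertheless fitted without the block, as designed, and the blocked values stand beside them where they change a call. Alternatives were DESeq2 1.42.0, limma 3.58.1 (voom with a correlated block), RLE factors, no filter on low counts, a block, summed fractions, a 3000 UMI minimum, a Leiden resolution of 1.5 and each pseudobulk left out. Added after seeing the data were the comparison in other chondrocytes, leaving out S4, adding unnamed clusters or cells of unknown sex, and control cells alone. RefSeq windows gave the sequences.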

Additional observations from a re-analysis of the deposited data

Results flagged for a closer look

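Among 190 groups of 4 values, 4 had an extreme value farther from the others than Dixon's 95% limit allows, where chance flags about 1 in 20. Vcan in connective tissue cells read 432 CPM in the S4 control, against 216 to 244 CPM in the other controls. In resting chondrocytes Vcan read 179 CPM in the S3 p21 cells, against 240 to 243 CPM in the other p21 pseudobulks. Lum in tdT- chondrocytes read 118 CPM in the S2 p21 cells, against 198 to 211 CPM. Dcn in perichondrium read 27.5 CPM in S4, against 2.56 to 4.22 CPM in the other libraries.

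The tdT contrast of Vcan pointed in opposite directions in the 2 tissues: the log2 fold change was 0.28 in chondrocytes, higher in tdT+ in 4 of 4 pairs, and -0.47 in connective tissue cells, lower in 4 of 4. That difference was not tested.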

How the results depend on the processing

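Depth and cell number limit these results: pseudobulks held 12 to 320 cells and fractions of a collection share embryos. Snorc, lower in tdT+ connective tissue cells, passed in 15 of 15 alternatives (log2 fold change -1.77 to -1.13), Hapln1 in 11 of 15 and Fmod in 8 of 15. Hapln1 in resting chondrocytes kept its direction in 17 of 17 (-0.83 to -0.51) and passed in 12, with adjusted p from 1.4e-05 to 0.418. Summed fractions leave 2 p21 against 2 control pseudobulks.

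Counts of genes called changed as follows, in the order p21 in chondrocytes, connective tissue cells, resting, proliferative and other chondrocytes, then tdT in chondrocytes and connective tissue cells, then the difference between tissues. DESeq2 gave 113, 6, 41, 8, 55, 8, 324 and 8 genes, with 2 members in other chondrocytes and 5 for tdT in connective tissue cells. No filter on low counts gave 379, 168, 189, 122, 171, 136, 891 and 187 genes, with 2 members in other chondrocytes, 1 for tdT in chondrocytes and 8 for tdT in connective tissue cells. Finer clusters gave 55 genes in chondrocytes, 4 in resting (0 members), 12 in proliferative, 58 and 322 for tdT (6 members in connective tissue cells) and 1 for the difference. A minimum of 3000 UMIs gave 364 genes and 5 members for tdT in connective tissue cells, and adding unnamed clusters gave 17 genes for tdT in chondrocytes. Summed fractions gave 0 genes in chondrocytes, 5 in resting (0 members), 0 in proliferative and 0 in other chondrocytes. The voom fit gave 13, 0 and 22 genes in chondrocytes, proliferative and other chondrocytes. Without S4 there were 2 genes in chondrocytes, 2 in resting (0 members), 0 in proliferative, and 0 and 93 for tdT. The cause of these changes was not tested.

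With a replicate block by library the p21 comparisons gave 12 genes in chondrocytes, 1 in connective tissue cells, 11 in resting, 0 in proliferative and 34 in other chondrocytes, where Epyc was the 1 member called (adjusted p = 0.0111). Library pairs there correlated between -0.141 and 0.242. In connective tissue cells all were positive, from 0.0568 to 0.242, where the fractions of a collection gave 0.109 to 0.328. The sorted fraction was left in the library values and the condition in those of the fractions, so neither shows pairing beyond these. The main p21 fits did not treat libraries as pairs in any class. With the embryos of a collection as a replicate block, tdT gave 15 genes in chondrocytes, and 319 genes and 5 members in connective tissue cells. The block changed no other member's call, and turned Epyc (-0.012) and Aspn (0.029) in proliferative and Fmod (-0.19) in other chondrocytes.

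Other reversals of sign, all of members without a call, were these log2 fold changes for p21. Finer clusters gave Dcn 0.29, Aspn 0.077 and Bgn -0.14 in chondrocytes, Snorc 0.25 in connective tissue cells, Snorc 0.28, Epyc 0.49 and Bgn -0.24 in resting, Acan 0.13 and Lum 0.038 in proliferative, Fmod -0.33 and Bgn -0.32 in other chondrocytes, and Snorc -0.27 and Aspn 0.057 for the difference. The 3000 UMI minimum gave Bgn -0.033 in chondrocytes, Snorc 0.32, Acan 0.039 and Aspn -0.016 in connective tissue cells, Snorc 0.26 and Epyc 0.069 in resting, Bgn -0.056 in other chondrocytes and Snorc -0.27 for the difference. Without S4 came Snorc 0.0059 and Bgn -0.19 in chondrocytes, Bgn -0.34 in proliferative, Fmod -0.14 and Bgn -0.029 in other chondrocytes, and for tdT Lum 0.065 and Epyc 0.22 in chondrocytes and Dcn 0.53 in connective tissue cells. Voom turned Fmod (0.00081 in chondrocytes, -0.00076 in other chondrocytes) and Epyc (-0.0033 in proliferative), no filter turned Fmod (0.013 in resting) and Lum (0.0025 in proliferative), summed fractions turned Snorc (-0.0038) and Epyc (-0.22) in proliferative and Acan (-0.025) in other chondrocytes, and added clusters turned Bgn (-0.16 in chondrocytes).

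Leaving out each pseudobulk in turn gave 1 to 27 genes for p21 in chondrocytes (1 each without the p21 cells of S2, S3 or S4), 4 to 34 in resting with 0 to 1 member, 0 to 3 in proliferative, 0 to 23 in other chondrocytes with 0 to 2 members, 0 to 1 for the difference, and for tdT 1 to 3 in chondrocytes and 96 to 221 in connective tissue cells with 1 to 3 members (1 without the p21 cells of S1 or S3). Log2 fold changes that crossed 0 ran, in chondrocytes, for Acan from -0.033 to 0.12, Aspn -0.53 to 0.022, Bgn -0.13 to 0.13, Dcn -0.37 to 0.089, Fmod -0.19 to 0.027, Lum -0.34 to 0.0085 and Snorc -0.22 to 0.12. They ran in connective tissue cells for Acan from -0.43 to 0.067, Hapln1 -0.15 to 0.28 and Snorc -0.38 to 0.14, and in resting chondrocytes for Bgn from -0.12 to 0.23, Fmod -0.48 to 0.24 and Vcan -0.35 to 0.031. In proliferative chondrocytes they ran for Acan from -0.29 to 0.13, Aspn -0.76 to 0.41, Bgn -0.34 to 0.74, Epyc -0.22 to 0.25, Fmod -0.10 to 0.35, Lum -0.26 to 0.13 and Snorc -0.022 to 0.39. Other chondrocytes had Acan from -0.0085 to 0.14, Bgn -0.12 to 0.23 and Fmod -0.20 to 0.23, the difference had Acan from -0.11 to 0.58, Bgn -0.32 to 0.029 and Snorc -0.31 to 0.31, and tdT in chondrocytes had Aspn from -0.23 to 0.33.

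The log2 ratio of levels, chondrocytes over connective tissue cells, moved by more than its SD over libraries with finer clusters for Vcan (-0.18), Bgn (-1.38), Fmod (-1.48) and Aspn (-4.05), with the 3000 UMI minimum for Dcn (-1.79) and Bgn (-1.38), and with cells of unknown sex for Aspn (-3.24). Shares of thinned cells gave Acan 2.46, Hapln1 2.30, Vcan -0.29, Epyc 2.70, Bgn -0.62, Aspn -2.71 and Snorc 1.94. All these kept their direction, while Lum, near 0, crossed it with the 3000 UMI minimum and in control cells alone.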
